A study of Mus musculus with 6 samples.

Results

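The genes described here encode the chains of integrins and laminins in iKAP mouse colorectal tumour cells. They were taken as every gene whose symbol in the array's platform annotation is Itga or Itgb with a number or letter, or Lama, Lamb or Lamc with a number, and that has a probe set named to it alone. The rule gave 35 genes of 18193 so named on the array, of which 25 encode integrin chains and 10 encode laminin chains. Itgb3bp, whose symbol begins in the same way but which encodes a binding protein and no chain, was left out. Its mean intensity was 38.0 ± 2.51 for the arrays labelled IRF2 and 37.2 ± 2.21 for the GFP controls (SD, n = 3 each). Itga11 and Itgad were not analysed here.

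Total RNA was measured on 6 Affymetrix expression arrays. In 3 of them the cells had been given the IRF2 open reading frame for stable expression, and in the other 3 the cells had been given GFP in place of it, both from a pLenti lentiviral plasmid. IRF2 binds DNA and belongs to the interferon regulatory factors. All 6 arrays come from a single numbered primary culture of the iKAP model, in which the tumours are known to have lost Apc and p53, and all had the same DMEM medium with a tetracycline-free additive. The labels do not tell whether replicate arrays were separate cultures, so p-values cover the spread among these 6 arrays alone, and it may be technical.

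Each integrin is a pair of an alpha and a beta chain that spans the cell membrane, binds the extracellular matrix or another cell outside, and links to actin or keratin filaments inside. The pairing sets the ligand: some alpha chains make laminin receptors, others read the RGD peptide of fibronectin and related proteins, others bind collagen, and several are used mainly by leukocytes. Laminins are cross-shaped trimers of an alpha, a beta and a gamma chain and are the main adhesive proteins of the basement membrane under the colon epithelium. A pair or a trimer is a protein assembly, and the arrays measured only the RNA of each chain.

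The array values are linear probe set intensities. A gene with several probe sets was represented by that of the highest mean log2 value, and genes whose probe set averaged at or under 11.3 (the 40th percentile) were not tested. Differences are log2 fold changes, arrays labelled IRF2 over GFP control arrays, from a limma fit over all 12795 genes tested, with Benjamini-Hochberg adjusted p-values and a threshold of 0.05. Intensities of different probe sets are not set against each other, since each has its own brightness. Precision is limited by the number of arrays. The array medians lay between 18.2 and 18.7. The probe set for Irf2 itself averaged 36.3 ± 0.934 on the arrays labelled IRF2 and 62.6 ± 2.53 on the GFP controls (SD, n = 3 each), a log2 fold change of -0.79 that goes against the label. The sources used here do not say whether the probes of that set lie within the open reading frame that was introduced. The group is therefore called "labelled IRF2" throughout. Of 12 intestinal epithelial markers, 3 lay under the intensity filter, namely Krt20, Vil1 and Cdx1. Among the other 9, Krt8 and Krt18 rose by 0.50 and 0.08 on the log2 scale. Epcam, Cdh1 and Cdh17 fell by 0.81, 0.75 and 0.57, and 4 did not pass. The rises are 22.2% of the 9, beside 16.5% of all genes tested. The falls are 33.3%, beside 19.8% of all genes tested.

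Of the 35 chain genes, 27 lay above the intensity filter. Among these, 9 rose and 1 fell on the arrays labelled IRF2, and 17 did not pass the test. The 9 rises are 33.3% of the 27, beside 16.5% of all genes tested that were called higher. The 1 fall is 3.70% of the 27, beside 19.8% of all genes tested that were called lower. In either direction the share was 37.0% of the chain genes and 36.3% of all genes tested, so the chain genes were called about as often as any gene. Of the 10 called, 7 differed by over 1.2-fold, which is 25.9% of the 27, beside 12.8% of all genes tested. The groups stood fully apart in 12 of the 27, or 44.4%, beside 46.2% of all genes tested. The median log2 fold change over the 27 was 0.07, beside -7.04e-04 over all genes tested. The beta chains held the widest changes: 4 of the 8 tested rose and 1 fell, against 3 rises in 11 tested alpha chains and 2 rises in 8 tested laminin chains. Whether these shares differ was not tested. In bulk RNA, a different mix of cells and a different amount of RNA per cell cannot be told apart.

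**Figure D1:**
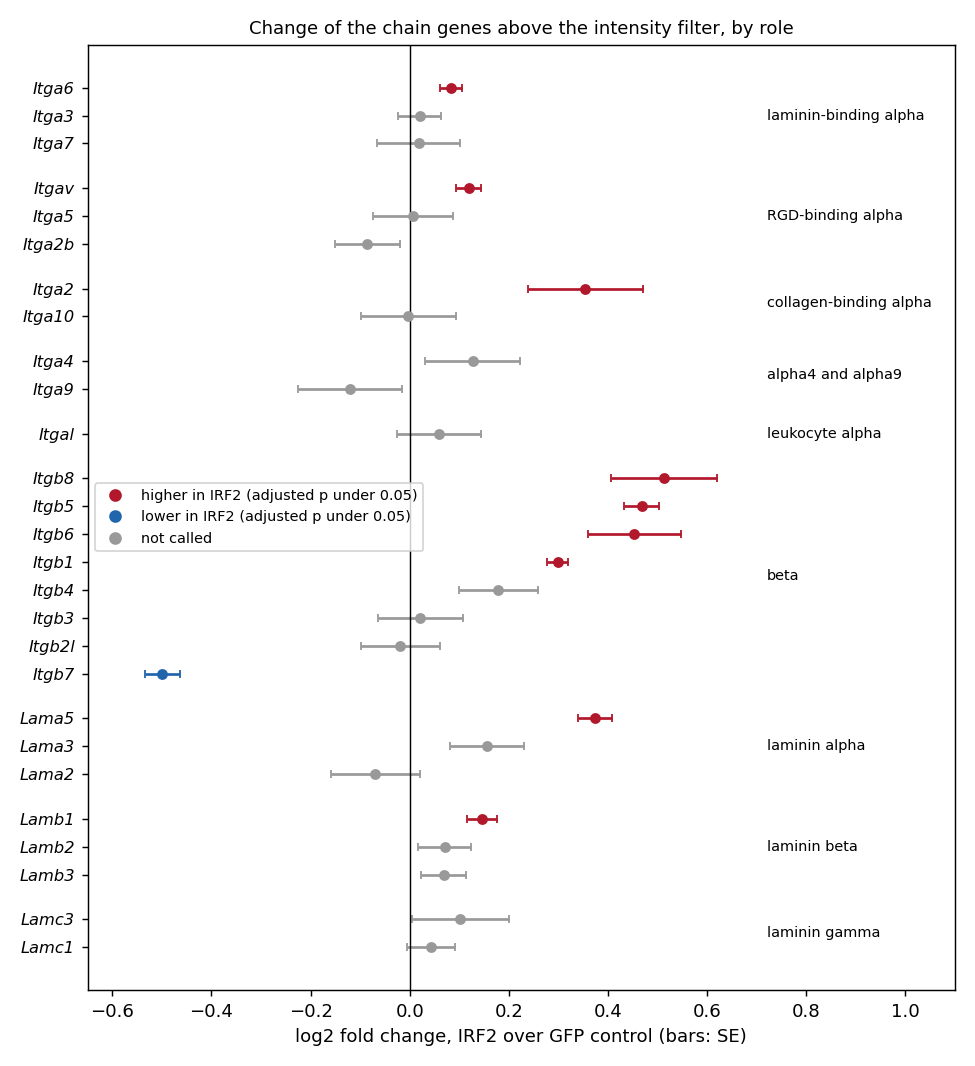
Log2 fold change (horizontal axis, arrays labelled IRF2 over GFP control arrays) with its SE for the 27 chain genes above the intensity filter, grouped by role. The beta chains spread from -0.50 (Itgb7) to 0.51 (Itgb8), and the 11 alpha chains from -0.12 (Itga9) to 0.35 (Itga2).

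The beta chains that pair with alphav were the first group. The alphav integrins bind RGD ligands, and those with beta6 or beta8 are known to activate latent TGF-beta. Itgb5, the beta chain of a vitronectin receptor, read 660.4, 671 and 638 on the arrays labelled IRF2, against 497, 450.4 and 477 on the GFP control arrays. The groups stood apart, with every array labelled IRF2 above every GFP control array, and the rise was 1.38-fold (log2 fold change 0.47, SE 0.03, limma adjusted p = 6.82e-08). All 4 probe sets of Itgb5 rose, by 0.38 to 0.47. Itgb8, an epithelial and neural beta chain, read 30.5, 26.5 and 23.4 on the arrays labelled IRF2, against 18.5, 16.7 and 21.0 on the GFP control arrays. The lowest value of the arrays labelled IRF2 still lay above the highest GFP control value, and the rise was 1.43-fold (log2 fold change 0.51, SE 0.11, limma adjusted p = 0.00133). Itgb6, a beta chain found mainly in epithelia, read 17.8, 17.2 and 14.9 on the arrays labelled IRF2, against 11.7, 11.9 and 12.7 on the GFP control arrays (log2 fold change 0.45, SE 0.09, limma adjusted p = 0.00132). Its groups did not overlap either. The other probe set of Itgb6, under the filter and without a test, read 12.9, 12.1 and 12.5 on the arrays labelled IRF2, against 6.41, 8.24 and 8.59 on the GFP control arrays. Itgb6 and Itgb8 were dim, and with 16 added before the log their changes came to 0.21 and 0.30, both still past the threshold.

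Itgb3, the beta chain of a further vitronectin receptor that is abundant in platelets and osteoclasts, showed no such difference. It read 15.3, 14.9 and 16.3 on the arrays labelled IRF2, against 14.9, 14.7 and 16.2 on the GFP control arrays (log2 fold change 0.02, SE 0.09, limma adjusted p = 0.883). The groups overlapped throughout.

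Itgb1 encodes the beta chain with the most partners, shared by the laminin, collagen and fibronectin receptors. It read 2908, 2945 and 3005 on the arrays labelled IRF2, against 2351, 2427 and 2424 on the GFP control arrays. The groups were well separated, and the rise was 1.23-fold (log2 fold change 0.30, SE 0.02, limma adjusted p = 3.51e-08). All 4 of its probe sets above the filter were higher, by 0.19 to 0.30, and 3 of them passed when each probe set was tested on its own. Itgb4, which pairs with alpha6 in the hemidesmosome, read 58.3, 58.1 and 61.1 on the arrays labelled IRF2, against 56.3, 45.5 and 55.7 on the GFP control arrays. Its groups did not overlap, but 1 GFP control array stood below the other 2 and the difference of 0.18 did not pass (SE 0.08, limma adjusted p = 0.0938). Without the replicate 1 GFP control array it was 0.23 and passed (limma adjusted p = 0.0473), and without the replicate 2 array of that group it was 0.08 (limma adjusted p = 0.418), the ends of the range over all alternatives.

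Itgb7, the single chain gene that fell, encodes the beta chain of the lymphocyte gut-homing receptors, where it pairs with alpha4 or alphaE. It read 274, 258 and 278 on the arrays labelled IRF2, against 378, 376 and 392 on the GFP control arrays. No array of a group came near the other group, and the GFP control level was 1.41-fold the level on the arrays labelled IRF2 (log2 fold change -0.50, SE 0.04, limma adjusted p = 4.07e-08). Itgb7 has 1 probe set, so no other probe set bears on it. Of 10 leukocyte markers, 9 were on the array and 3 of these, Ptprc, Adgre1 and S100a8, lay under the filter. Ptprc, the pan-leukocyte marker, averaged 4.96 on the arrays labelled IRF2 and 4.48 on the GFP control arrays, within the 3.69 to 6.52 that the 3 bacterial tryptophan control probe sets read. The summed level of the 9 markers was 329 to 346 on the arrays labelled IRF2 and 299 to 333 on the GFP control arrays. Bright probe sets weigh most in such a sum. Cd14 averaged 137 on the arrays labelled IRF2 and 120 on the GFP controls, and Cd68 77.9 and 77.6. Of the 6 tested, only Cd14 rose, by 0.18 (limma adjusted p = 0.035), which is 16.7% beside 16.5% of all genes tested. Among the 6, 0 fell, beside 19.8% of all genes tested, and 0 were lower at an unadjusted limma p under 0.05. Itgb2, the common beta chain of the leukocyte integrins, was under the filter. Its relative Itgb2l read 17.9, 17.6 and 17.3 on the arrays labelled IRF2, against 18.4, 18.1 and 17.1 on the GFP control arrays, and the groups overlapped (log2 fold change -0.02, SE 0.08).

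**Figure D2:**
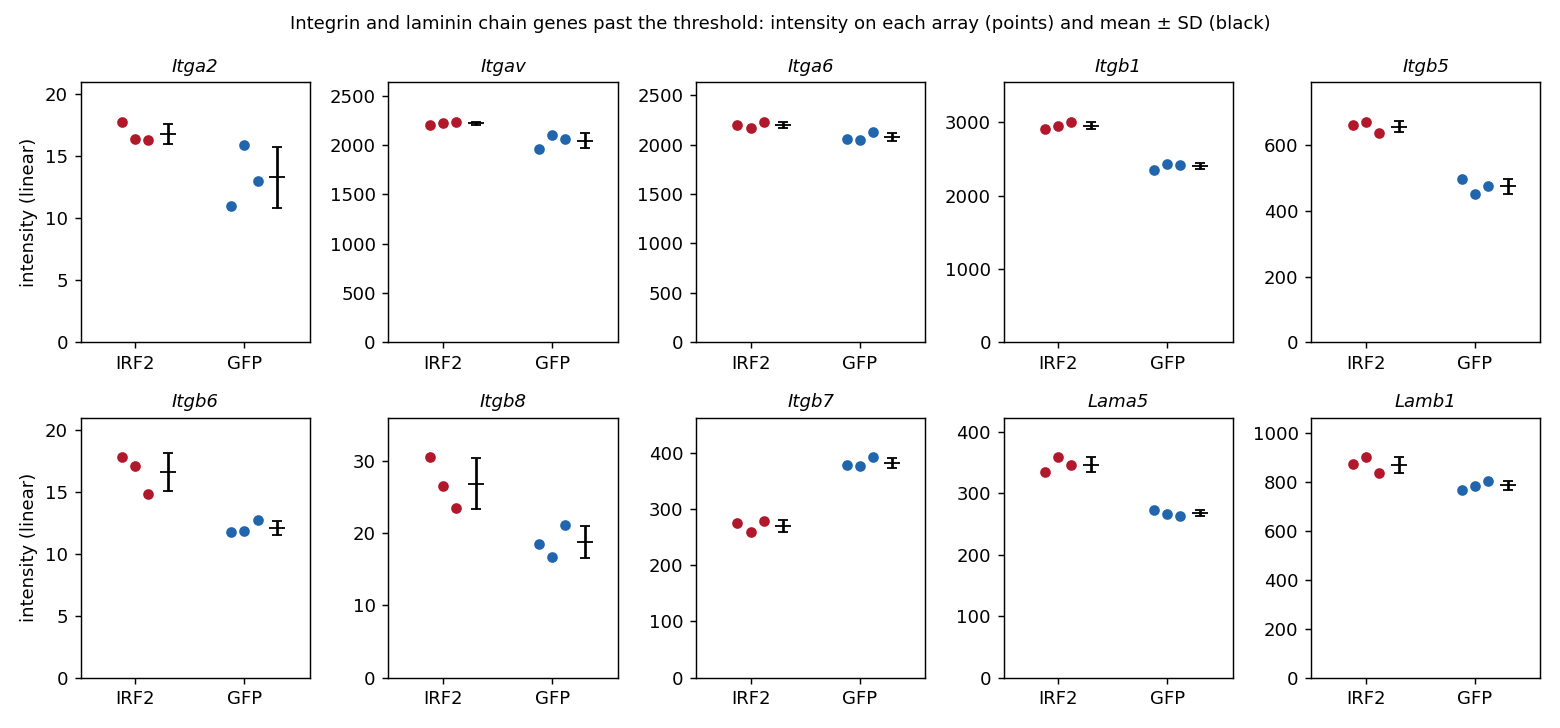
Linear intensity (vertical axis, from 0) on each of the 3 arrays labelled IRF2 and the 3 GFP control arrays for the 10 chain genes past the threshold, with the mean and SD in black. In all 10 the groups do not overlap. Itgb7 is the gene that is lower on the arrays labelled IRF2, at 258 to 278 against 376 to 392.

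The DNA before the starts of the beta chain genes is shown because 5 of them changed, in opposite directions, and the protein named by the labels binds DNA. Interferon regulatory factors recognise repeats of GAAA, so the 250 bases before each RefSeq start (GRCm38.p6, 5′ to 3′ along the gene) were searched on both strands for the tandem element GAAANNGAAA and for the shorter AANNGAAA, which every tandem element also contains. Windows were found for 23 of the 35 chain genes, 26 in all. Itgb5 (chr16:33829415-33829664, plus strand) and Itgb7 (chr15:102231936-102232185, minus strand) stand for a rise seen in all 4 probe sets and for the fall, Itgb6 (chr2:60722604-60722853, minus strand, the first of 2 windows) for another rise, and Itga3 (chr11:95076715-95076964, minus strand, the first of 2 windows) for a gene that did not pass the test. Capitals mark the letters that match either element.
Itgb5: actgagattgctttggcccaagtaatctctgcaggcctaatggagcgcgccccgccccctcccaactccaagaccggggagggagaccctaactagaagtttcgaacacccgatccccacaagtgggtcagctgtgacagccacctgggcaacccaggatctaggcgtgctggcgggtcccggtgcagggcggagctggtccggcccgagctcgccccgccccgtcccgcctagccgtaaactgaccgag
Itgb6: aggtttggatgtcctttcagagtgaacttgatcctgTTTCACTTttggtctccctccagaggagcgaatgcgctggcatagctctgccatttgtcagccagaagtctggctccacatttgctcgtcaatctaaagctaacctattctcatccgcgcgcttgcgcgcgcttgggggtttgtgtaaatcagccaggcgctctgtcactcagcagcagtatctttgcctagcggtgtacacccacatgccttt
Itgb7: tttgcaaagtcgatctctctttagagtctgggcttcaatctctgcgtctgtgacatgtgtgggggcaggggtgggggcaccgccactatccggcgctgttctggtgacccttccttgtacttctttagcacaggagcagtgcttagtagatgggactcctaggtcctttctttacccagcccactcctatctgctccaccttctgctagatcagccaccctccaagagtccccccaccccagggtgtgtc
Itga3: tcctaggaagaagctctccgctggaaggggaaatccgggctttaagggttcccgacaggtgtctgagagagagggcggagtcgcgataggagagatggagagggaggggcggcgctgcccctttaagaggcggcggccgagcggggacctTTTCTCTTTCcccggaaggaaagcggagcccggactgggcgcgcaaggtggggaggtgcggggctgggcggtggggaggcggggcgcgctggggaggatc
The tandem element was found in 2 of the 26 windows, beside 2.98% of 32851 windows of all genes. The windows that hold it belong to Itga3 and Itga2b, and neither gene passed the test. In Itga3 it begins 100 bases before the start. The shorter element was found in 5 of the 26 windows, beside 21.3% of all windows: those of Itgb6, Itgav, Lamb2, Itga3 and Itga2b. In the printed windows of Itgb5 and Itgb7 neither string of letters occurs. A match describes letters and is not a measured binding site.

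Of the 11 tested alpha chains 3 rose, and 1 of these, Itga2, by over 1.2-fold. Itgav, the partner of beta5, beta6 and beta8, read 2202, 2218 and 2233 on the arrays labelled IRF2, against 1957, 2106 and 2065 on the GFP control arrays. The groups did not overlap, and the rise was 1.09-fold (log2 fold change 0.12, SE 0.03, limma adjusted p = 0.00153). Its other 2 probe sets above the filter gave 0.12 and -0.14, and neither passed on its own. In the mean of its 5 probe sets the call of Itgav was lost, at 0.01 (limma adjusted p = 0.904), and without the intensity trend its adjusted p was 0.0517.

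Itga6 and Itga3 encode the main laminin-binding alpha chains of epithelia. Itga6 read 2194, 2173 and 2230.0 on the arrays labelled IRF2, against 2057, 2046 and 2124 on the GFP control arrays, a 1.06-fold rise without overlap (log2 fold change 0.08, SE 0.02, limma adjusted p = 0.00631). Its other probe set gave -0.02 and overlapped between the groups, and the call was lost in the mean of both (0.03, limma adjusted p = 0.255) and without the intensity trend (limma adjusted p = 0.0917). Itga3 read 344, 299 and 315 on the arrays labelled IRF2, against 314, 318 and 311 on the GFP control arrays. The arrays labelled IRF2 lay on both sides of the GFP control arrays (log2 fold change 0.02, SE 0.04, limma adjusted p = 0.769). The muscle laminin receptor chain gene Itga7 read 15.1, 15.2 and 15.8 on the arrays labelled IRF2, against 15.2, 15.8 and 14.6 on the GFP control arrays (0.02, SE 0.08), and its groups overlapped.

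Of the other RGD-binding alpha chains, Itga5, the fibronectin receptor chain, read 29.0, 26.8 and 26.0 on the arrays labelled IRF2, against 26.2, 29.4 and 25.9 on the GFP control arrays. The groups overlapped and the log2 fold change was 0.01 (SE 0.08). The platelet chain gene Itga2b read 57.6, 63.8 and 60.8 on the arrays labelled IRF2, against 68.9, 63.8 and 60.8 on the GFP control arrays (-0.09, SE 0.07), again with overlap.

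Itga2 encodes an alpha chain of a collagen receptor of epithelia and platelets. It read 17.8, 16.4 and 16.3 on the arrays labelled IRF2, against 11.0, 15.9 and 13.0 on the GFP control arrays (log2 fold change 0.35, SE 0.12, limma adjusted p = 0.0256). The groups did not overlap, but the highest GFP control value lay close under the lowest value of the arrays labelled IRF2, and the gene is dim. The call of Itga2 was lost without replicate 1 labelled IRF2 (0.31, limma adjusted p = 0.0919), without replicate 2 labelled IRF2 (0.37, 0.0514), without replicate 1 of the GFP controls (0.23, 0.13), without replicate 3 of the GFP controls (0.35, 0.0731) and without the intensity trend (0.0766), within a range of 0.00196 to 0.13 over all alternatives. With 16 added before the log the change was 0.17. The cartilage collagen receptor chain gene Itga10 read 12.8, 12.6 and 15.0 on the arrays labelled IRF2, against 12.6, 14.0 and 13.8 on the GFP control arrays, with overlap and a log2 fold change of -0.0028 (SE 0.10).

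Of the 3 tested genes for alpha chains of leukocytes and for the alpha4 and alpha9 chains, limma called 0, and 0 had an unadjusted p under 0.05. Itga4, which pairs with beta1 or beta7, read 17.5, 19.8 and 15.8 on the arrays labelled IRF2, against 15.2, 16.3 and 16.9 on the GFP control arrays (0.13, SE 0.10). Itga9, a tenascin receptor chain, read 14.3, 17.6 and 16.5 on the arrays labelled IRF2, against 20.0, 16.6 and 16.1 on the GFP control arrays (-0.12, SE 0.11). Both overlapped between the groups. Itgal, the alpha chain of LFA-1, read 14.1, 13.9 and 13.3 on the arrays labelled IRF2, against 12.9, 13.6 and 13.3 on the GFP control arrays (0.06, SE 0.08), also with overlap. The 8 chain genes under the filter were Itga1, Itga8, Itgae, Itgam, Itgax, Itgb2, Lama1 and Lama4. Their single-array values ran from 3.75 to 11.5, and in a limma fit of all 18193 genes without the filter 0 of the 8 passed, with 1, Itga8, at an unadjusted p under 0.05 (0.0304).

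Laminin chains followed. Lama5, the alpha chain of the laminins most widespread in adult epithelial basement membranes, read 335, 358 and 346 on the arrays labelled IRF2, against 272, 267 and 263 on the GFP control arrays. The groups were far apart, and the rise was 1.30-fold (log2 fold change 0.37, SE 0.03, limma adjusted p = 6.54e-07). Its second probe set above the filter gave 0.38. In the mean of its 3 probe sets, which takes in a dim probe set, the change was 0.21 and still passed (limma adjusted p = 0.0023).

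Lamb1, a beta chain that assembles with laminin alpha5, read 873, 899 and 833 on the arrays labelled IRF2, against 768, 784 and 802 on the GFP control arrays, without overlap (log2 fold change 0.15, SE 0.03, limma adjusted p = 0.00116). The size of its rise depended on the probe set: the other 2 above the filter gave 0.40 and 0.06, and that at 0.06 did not pass on its own (limma adjusted p = 0.442). Lamc1, the gamma chain of the same trimers, did not pass. It read 150.3, 138 and 140.4 on the arrays labelled IRF2, against 133, 138 and 145 on the GFP control arrays, and the groups overlapped (0.04, SE 0.05, limma adjusted p = 0.553).

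Lama3 and Lamb3 encode chains of the laminin that anchors hemidesmosomes. Lama3 read 53.8, 48.7 and 47.1 on the arrays labelled IRF2, against 41.3, 45.5 and 47.5 on the GFP control arrays (0.16, SE 0.07, limma adjusted p = 0.125). Its groups overlapped, and it passed narrowly in the mean of its probe sets (0.16, limma adjusted p = 0.0496; 0.0496 to 0.402 over all alternatives). Lamb3 read 127, 131 and 124 on the arrays labelled IRF2, against 118, 123 and 123 on the GFP control arrays, a small separation that did not pass (0.07, SE 0.05, limma adjusted p = 0.278). For the remaining 3, the groups overlapped. The muscle and nerve laminin chain gene Lama2 read 20.9, 19.9 and 17.7 on the arrays labelled IRF2, against 22.0, 19.2 and 20.0 on the GFP control arrays (-0.07, SE 0.09). Lamb2, a beta chain of kidney and synaptic basement membranes, read 79.7, 80.5 and 75.9 on the arrays labelled IRF2, against 76.1, 73.4 and 75.2 on the GFP control arrays (0.07, SE 0.05). Lamc3 read 14.7, 15.1 and 12.1 on the arrays labelled IRF2, against 12.9, 13.1 and 12.8 on the GFP control arrays (0.10, SE 0.10).

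**Figure D3:**
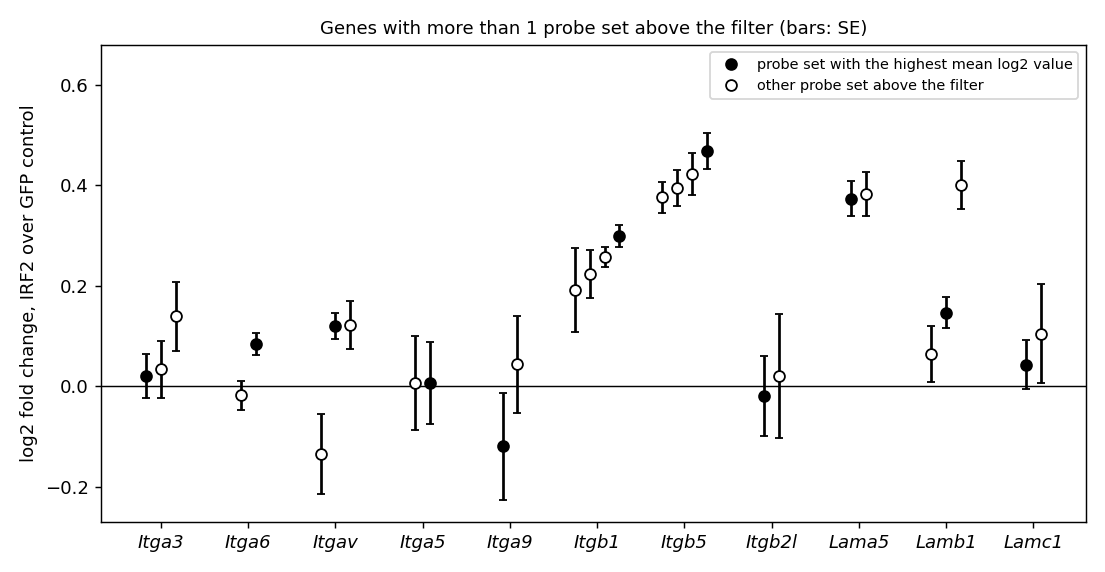
Log2 fold change with its SE (vertical axis, arrays labelled IRF2 over GFP control arrays) of every probe set above the filter, for the chain genes with more than 1. The 4 probe sets of Itgb5 lie between 0.38 and 0.47, those of Lamb1 between 0.06 and 0.40, and those of Itgav between -0.14 and 0.12.

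The probe sets of a gene differed enough to bear on these calls. The 35 genes have 76 probe sets, of which 45 lay above the filter. Itgb1, Itgb5 and Lama5 had probe sets of 1 direction above the filter, Lamb1 had 1 direction with unequal sizes, and Itga6 and Itgav had both directions. Itga2, Itgb6, Itgb7 and Itgb8 each had a single probe set above it.

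Genes that act with these chains were taken from 4 lists, which were chosen with earlier results of these data known. Their counts stand beside the 16.5% of all genes tested that were called higher and the 19.8% called lower. Those shares depend on intensity and were not matched to the lists, in which many genes are bright. With the filter at the 60th percentile, 46.5% of genes were called in either direction, against 36.3% in the main fit. The adhesion complex links integrin tails to actin, and 24 of the 26 genes in its list were found by symbol, without Fermt1 and Ptk2. Of the 24, 13 rose (54.2%), 2 fell (8.33%) and 9 did not pass, with a median log2 fold change of 0.11. The largest rises were in the actin crosslinker gene Flna (882 ± 26.5 on the arrays labelled IRF2 and 696 ± 11.2 on the GFP controls, SD, n = 3 each; 0.34, SE 0.03, limma adjusted p = 1.52e-07), the paxillin relative Tgfb1i1 (0.31, SE 0.07) and the paxillin gene Pxn (0.29, SE 0.03). Itgb1bp1, which encodes a protein that binds the beta1 tail and holds the integrin inactive, fell by 0.14 (SE 0.03), and Kank1 fell by 0.22 (SE 0.08, limma adjusted p = 0.0417). The call of Kank1 was lost in 8 of 14 alternatives: when any array but replicate 1 labelled IRF2 was left out, without the filter, with probe sets tested singly and with them averaged (-0.10, limma adjusted p = 0.206). Its adjusted p ran from 0.0218 to 0.206, and with 16 added before the log its change was -0.14. The talin gene Tln1, whose product switches integrins on, differed by 0.05 and did not pass.

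Of 13 listed RGD integrin ligands, 10 were found by symbol, and 2 of these, Vtn and Edil3, lay under the filter. Spp1, Cyr61 and Ctgf were not found under those symbols. The 8 tested genes gave 6 rises (75%) and 2 falls (25%), beside 16.5% and 19.8% of all genes tested, with a median of 0.33. The fibronectin gene Fn1 averaged 2926 ± 54.3 on the arrays labelled IRF2 and 1676 ± 14.4 on the GFP controls (SD, n = 3 each; 0.80, SE 0.02, limma adjusted p = 8.05e-13). Fbln5, an elastic fibre protein gene, and Npnt, the nephronectin gene, rose by 0.60 (SE 0.05) and 0.40 (SE 0.03), and all their probe sets averaged gave 0.30 and 0.24. The tenascin gene Tnc fell by 0.43 (SE 0.03) and the milk fat globule protein gene Mfge8 by 0.09 (SE 0.02). The call of Mfge8 was lost without the intensity trend (limma adjusted p = 0.0665; 0.00828 to 0.0665 over all alternatives), which leaves 1 fall in this list.

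Basement membrane partners of laminin gave 4 rises (30.8%) and 3 falls (23.1%) in 13 tested genes, with a median of -0.02. The share of falls was near the 19.8% of all genes tested. Ntn4, a netrin that binds laminin gamma chains, averaged 169 ± 2.40 on the arrays labelled IRF2 and 92.6 ± 3.43 on the GFP controls (SD, n = 3 each; 0.87, SE 0.05, limma adjusted p = 1.58e-09). The collagen genes Col4a5 and Col18a1 rose by 0.25 (SE 0.04) and 0.24 (SE 0.05). Nid2, which encodes a linker between laminin and collagen IV, fell by 0.48 (SE 0.08), Col4a2 by 0.19 (SE 0.04) and the agrin gene Agrn by 0.19 (SE 0.06, limma adjusted p = 0.0208). The direction of Agrn turned in the mean of its probe sets (0.03, limma adjusted p = 0.726; 0.0154 to 0.726 over all alternatives). Its call was also lost without replicate 2 labelled IRF2 (-0.18) and without replicate 3 of the GFP controls (-0.15).

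Of 8 tested hemidesmosome and tetraspanin partners, 4 rose (50.0%, beside 16.5% of all genes tested) and 1 fell (12.5%, beside 19.8%), with a median of 0.06. The plectin gene Plec, whose product ties beta4 to keratin, rose by 0.23 (SE 0.02; 0.15 with its probe sets averaged), and Cd151, a tetraspanin that binds laminin receptors, by 0.16 (SE 0.02). Dst, another plakin gene, rose by 0.10 (SE 0.03), but gave -0.04 in the mean of its probe sets (limma adjusted p = 0.633; 0.00186 to 0.633 over all alternatives). The basal keratin gene Krt14 fell by 0.71 (SE 0.06, limma adjusted p = 1.59e-07). Of the other cell type markers, 1 of 5 tested fibroblast genes rose (Pdgfra) and 1 fell (Pdgfrb), and of 4 tested endothelial genes 1 fell (Egfl7), beside 16.5% of all genes tested called higher and 19.8% called lower. The summed level of the 10 fibroblast markers was 167 to 175 on the arrays labelled IRF2 and 161 to 169 on the GFP control arrays, and that of the 8 endothelial markers was 110.3 to 123 on the arrays labelled IRF2 and 119 to 128 on the GFP control arrays. In these sums too, bright probe sets weigh most. The part of such cells in the results was not tested.

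**Figure D4:**
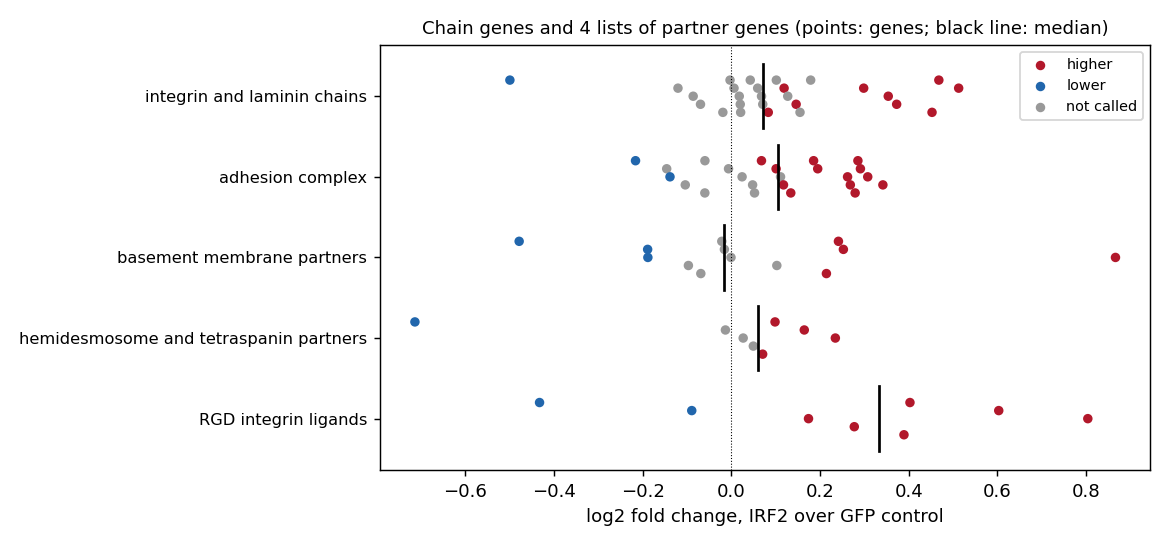
Log2 fold change (horizontal axis, arrays labelled IRF2 over GFP control arrays) of the chain genes and of the genes of 4 partner lists, with each list's median as a black line. The medians are 0.07 for the chain genes, 0.11 for the adhesion complex, -0.02 for basement membrane partners, 0.06 for hemidesmosome and tetraspanin partners and 0.33 for RGD integrin ligands.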

How the data were processed

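The 3 arrays labelled IRF2 and the 3 GFP control arrays were grouped by their titles. The authors deposited linear intensities for 45101 probe sets. Of the processing, the submitters' processing notes give the name MAS5 alone, and no source used here states the summary or scaling method. No further scaling was applied. Symbols came from GEO's platform annotation: of 45037 non-control probe sets, 34945 had 1 symbol, 932 several and 9160 none, and the last 2 kinds were left out.

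A linear model of log2 intensity on group was fitted to all genes tested (limma 3.58.1, R 4.3.3, lmFit and eBayes with an intensity trend), leaving 4 residual degrees of freedom. All tests were two-sided. The fit was tested on simulated data in which 200 genes were changed. It recovered 29.5% of them at a log2 change of 0.2, 88.3% at 0.5 and 99.5% at 1. With no change it called 0 genes. Most changes of 0.2 and some of 0.5 were thus missed. A gene that did not pass may therefore still differ by such amounts. In the real data 4642 genes passed, far more than were changed in the simulation, so recovery may differ. Named were all chain genes, and in each partner list the 3 largest rises and 3 largest falls past the threshold. Tln1 and the cell type markers were named outside this rule. The members and lists were chosen with earlier results of these data known. Same-numbered arrays of the 2 groups correlated by 0.07, -0.08 and -7.71e-04 in their deviations from the group means. These values show no pairing by number, but 3 arrays per group are too few to settle it. Alternatives varied the filter, the value added before the log, the normalization, the probe set rule, the spread model, the block and the arrays.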

Additional observations from a re-analysis of the deposited data

How the results depend on the processing

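The chain genes were recomputed under 15 alternatives, and 7 of the 10 called genes kept their direction and call in all that could be run. The exceptions were Itga2, Itga6 and Itgav. The count of chain genes called higher ran from 6 to 9 and that called lower was 1 throughout. It was 6 with the filter at the 60th percentile, which leaves out the dim Itga2, Itgb6 and Itgb8, and 6 without the intensity trend. Leaving out 1 array gave 8 to 9. With the replicate number as a replicate block, which is a hint from numbering only, the counts were 9 and 1, and 4678 genes in place of 4642 passed over the whole table. Leaving out 1 array gave 3951 to 4399. Among genes that did not pass, the sign turned in the mean of the probe sets for Itga4 (-0.010), Itga5 (-0.011), Itgb2l (0.023) and Itgb3 (-0.078), and under quantile normalization for Itga5 (-0.0082). Leaving out 1 array gave ranges across 0 for Itga10 (-0.083 to 0.042), Itga3 (-0.035 to 0.067), Itga5 (-0.039 to 0.064), Itga7 (-0.013 to 0.047), Itgb2l (-0.051 to 0.0023) and Itgb3 (-0.015 to 0.064). In the partner lists, whose alternatives were chosen after seeing the data, Agrn (0.032) and Dst (-0.040) turned in the mean of their probe sets. The cause was not tested. No background correction could be varied here, and dim genes near the filter carry the largest relative error.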
